A study of Homo sapiens with 18 samples.

Results

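Death receptors carry a death signal from the cell surface to the caspases, and their genes were followed here in SJSA cells, an osteosarcoma line with amplified MDM2 and CDK4. The 9 genes were chosen by symbol among the 23368 gene rows of the deposited tables. They are the death receptors FAS, TNFRSF10A (DR4), TNFRSF10B (DR5) and TNFRSF1A, the TRAIL decoy receptors TNFRSF10C and TNFRSF10D, the TRAIL ligand TNFSF10, the adaptor FADD and CFLAR, which encodes the caspase-8 antagonist c-FLIP. RNA-seq was done on 18 libraries in 6 groups of 3. The groups were the solvent control DMSO, Nutlin (20 µM, 6 h), PD0332991 at 10 µM for 24 h (PD24) or 30 h (PD30), and the combinations N+PD24 and N+PD30. All groups are the same line, with no other genetic change named, and the doses are as the labels give them.

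Nutlin is an MDM2 antagonist that lets p53 accumulate, and PD0332991 (Palbociclib) inhibits CDK4 and CDK6. By the study's schedule, PD0332991 was withdrawn for the final 6 h in PD24 and N+PD24, whereas it stayed on the cells during the Nutlin treatment in N+PD30. N+PD24 therefore measures Nutlin after the CDK4 inhibitor, and N+PD30 measures Nutlin in its presence. The exposures of 24 h and 30 h differed as well, so presence and duration cannot be told apart between them.

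FAS and the TRAIL receptors DR4 and DR5 bind their ligand as trimers, and their cytoplasmic death domains then recruit FADD, which in turn binds caspase-8. c-FLIP resembles caspase-8 but lacks its protease activity and limits its activation. The decoy receptors bind TRAIL without passing on a death signal, because TNFRSF10C is anchored in the membrane by a lipid and TNFRSF10D has a truncated death domain. TNFRSF1A recruits TRADD and mainly drives survival and inflammatory signalling. FAS and TNFRSF10B are textbook target genes of p53.

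On GRCh37, the hg19 build of the count tables, CFLAR lies on chromosome 2 (201980877 to 202041410), TNFSF10 on chromosome 3 (172223298 to 172241265), FAS on chromosome 10 (90750414 to 90775542), FADD on chromosome 11 (70049402 to 70053496) and TNFRSF1A on chromosome 12 (6437923 to 6451280). FAS is transcribed from the plus strand, and the stretch below is shown because FAS had the largest called fold increases of the 9 genes in both combination groups against their PD0332991 controls. The capitals mark a match to the p53 full site, meaning 2 copies of the 10-base p53 half-site consensus with at most 13 bases between them, both C and G cores kept and at most 2 mismatches in all.
FAS intron 1, chr10:90751036-90751115, plus strand, GRCh37: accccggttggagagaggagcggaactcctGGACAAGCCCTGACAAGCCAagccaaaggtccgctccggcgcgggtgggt

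The match lay 652 bases after the start of the first exon, in the intron that follows exon 1 of the principal FAS transcript, and its 2 half-sites adjoined with 2 mismatches, both in the second half-site. It was found in a RefSeq promoter window of an alternative FAS start (GRCh38.p14, 250 bases before to 50 after each start) and then located by its letters in GRCh37. The motif reads the same on both strands, and 2.93% of all 35116 such windows held a match. Of the members, 5 had windows, 10 in all, and 1 of these, of FAS, held a match. TNFRSF10A, TNFRSF10B, TNFRSF10C and TNFRSF10D had no window. A match of letters was not a measurement of binding.

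The libraries held 12704845 to 40231041 counts, with N+PD30 replicate 1 the shallowest. Levels are given as CPM, the counts scaled to the library's total, and fold changes come from a fit across all genes, with p-values adjusted over all genes tested. MDM2, the p53 target that Nutlin blocks as a protein, went from 2589 ± 79.7 CPM in DMSO to 22914 ± 4589 CPM in Nutlin (SD, n = 3), as a check of the labels. The 22 cell cycle genes on a fixed list summed to 5947 to 6431 CPM in DMSO, 3240 to 4065 CPM in Nutlin and 226 to 431 CPM in the 4 groups with PD0332991. Of 11 osteosarcoma and bone markers, 8 reached 1 CPM in every group, while the osteoblast genes BGLAP, SP7 and IBSP did not. Summed markers of leukocytes, endothelium and epithelium stayed at or under 16.5, 15.4 and 3.06 CPM. Of the 5 leukocyte markers, 2 reached 1 CPM in every group. Mean CD14 ran from 5.42 CPM in PD30 to 9.43 CPM in Nutlin, and mean LYZ from 1.78 CPM in DMSO to 2.56 CPM in N+PD24. CD3E was at 0 in 4 of 6 groups. The sum of the 3 endothelial markers moved with treatment. It was 1.85 to 3.04 CPM in DMSO, 6.19 to 8.29 CPM in Nutlin, 6.34 to 8.37 CPM in PD30 and 10.6 to 15.4 CPM in N+PD24. VWF made up most of it, with means of 1.70 CPM in DMSO and 11.2 CPM in N+PD24, while CDH5 averaged 0.0101 and 0.101 CPM. The part of these markers in the results was not tested. In such bulk RNA, fewer cells with a transcript and less of it per cell cannot be told apart.

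DR4 and DR5 differed in the way their Nutlin response met the CDK4 inhibitor. TNFRSF10A RNA was scarce, at 0.424, 0.208 and 0.420 CPM in the DMSO libraries (6 to 14 counts). In Nutlin it stood at 2.33, 1.87 and 3.21 CPM (56 to 87 counts), and all 3 libraries were above every control. In N+PD24 it was again high, at 1.97, 2.65 and 2.85 CPM. In N+PD30 it was 0.708, 0.403 and 0.678 CPM, which overlapped PD30 at 0.654, 0.556 and 0.710 CPM. PD24 held 0.475, 0.379 and 0.522 CPM. PD30 lay above DMSO in every library, by 0.83 ± 0.32 on the log2 scale (adjusted p = 0.0569). The difference passed in one fit on 15 libraries (adjusted p = 0.0452). In PD30 against DMSO the gene passed the filter on low counts through PD30 alone, where it was higher. Its being tested there was tied to a difference. The levels thus fell into a high pair of groups, Nutlin and N+PD24, whose libraries overlapped, and 4 low groups.

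TNFRSF10A rose 7.48-fold with Nutlin (log2 2.90 ± 0.32 SE, adjusted p = 4.9e-05, edgeR). During PD0332991 the same step from PD30 to N+PD30 was −0.08 on the log2 scale, with a 95% interval from −0.80 to 0.64 (adjusted p = 0.887). The difference between these responses was itself tested as an interaction and came to −2.93 ± 0.45 (adjusted p = 0.00086). After PD0332991 had been withdrawn, TNFRSF10A rose from PD24 to N+PD24 by 1.73 ± 0.18 on the scale of log2(CPM + 0.5), which understates changes of low genes (adjusted p = 6.75e-05, limma), and by 2.55 in a count fit. The interaction with PD24 was −0.11 on the log2(CPM + 0.5) scale, with an interval from −0.65 to 0.42 (adjusted p = 0.905). In the count fit it was −0.34 (adjusted p = 0.834). Between the combinations, N+PD30 against N+PD24 gave −1.53 ± 0.20 for TNFRSF10A on the log2(CPM + 0.5) scale (adjusted p = 0.000707). The count fit gave −2.24 (adjusted p = 0.0007). TNFRSF10A passed the filter on low values through Nutlin alone in Nutlin against DMSO and through N+PD24 alone in these comparisons of N+PD24 with PD24 and N+PD30, and its calls there also passed with no filter.

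The annotation places TNFRSF10A beside the divergent transcript TNFRSF10A-DT (LOC389641 in the tables), with 632 bases in common on the opposite strand. The library kit was not stated to keep the strand, so reads of such partners cannot be told apart where they overlap. LOC389641 had mean levels of 0.842 CPM in DMSO, 1.46 CPM in Nutlin, 1.73 CPM in N+PD24 and 0.775 CPM in N+PD30, so it was high in the same groups as TNFRSF10A. Its part in the TNFRSF10A counts was not tested.

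TNFRSF10B was far more abundant, with 345, 354 and 334 CPM in DMSO. Nutlin libraries held 1110.0, 1103 and 1136 CPM, a tight group well above the controls. N+PD24 libraries held 1204, 1156 and 1434 CPM and N+PD30 libraries 1073, 1111 and 1206 CPM, so Nutlin and N+PD30 overlapped. PD30, at 466, 424 and 491 CPM, stood above DMSO, while PD24, at 368, 312 and 398 CPM, overlapped it.

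TNFRSF10B rose 3.54-fold with Nutlin (log2 1.82 ± 0.08, adjusted p = 4.72e-07), 3.91-fold from PD24 to N+PD24 (1.97 ± 0.13, adjusted p = 5.13e-06) and 2.62-fold from PD30 to N+PD30 (1.39 ± 0.09, adjusted p = 8.24e-05). Against Nutlin alone, N+PD30 differed by −0.02, with an interval from −0.27 to 0.22 (adjusted p = 0.878), where TNFRSF10A gave −2.14 ± 0.32 (adjusted p = 0.00035). The interaction with PD30 was −0.38 ± 0.11 (adjusted p = 0.0295), and PD30 alone had raised the gene by 0.40 ± 0.08 (adjusted p = 0.00199). That interaction missed the threshold without any 1 of the DMSO libraries, Nutlin replicate 2, PD30 replicate 1 or 3 or N+PD30 replicate 2, with values from −0.41 to −0.32 and adjusted p from 0.0523 to 0.0814. From Nutlin to N+PD24 the gene went up by 0.25 ± 0.11 (adjusted p = 0.104), and this difference passed with the replicate number as a block (adjusted p = 0.0170). RHOBTB2 shares 377 bases with it on the opposite strand, at 45.7 CPM in Nutlin and 54.5 CPM in N+PD30. An annotated long noncoding RNA shares 803 bases with TNFRSF10B on that strand, and its level was not examined.

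FAS, the receptor for FAS ligand, changed more than any other abundant member. Its DMSO libraries held 24.2, 23.5 and 20.7 CPM and its Nutlin libraries 153, 124 and 131 CPM. PD24 held 14.5, 8.68 and 11.8 CPM and PD30 13.6, 12.4 and 13.2 CPM, all below DMSO. N+PD24 reached 185, 154 and 175 CPM, and N+PD30 reached 104, 114 and 123 CPM. The order of levels was N+PD24, Nutlin, N+PD30, DMSO and then the PD0332991 groups, in which PD24 and PD30 overlapped and the other groups did not. The highest N+PD30 library lay just under the lowest Nutlin library, and the highest Nutlin library just under the lowest N+PD24 library.

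FAS rose 6.52-fold with Nutlin (log2 2.70 ± 0.12, adjusted p = 4.13e-07) and fell by 0.82 ± 0.11 in PD30 (adjusted p = 0.000252) and by 0.94 ± 0.18 in PD24 (adjusted p = 0.00318). From these lower starting levels Nutlin raised it 9.27-fold in N+PD30 (3.21 ± 0.10, adjusted p = 2.42e-06) and 15.9-fold in N+PD24 (4.0 ± 0.18, adjusted p = 1.23e-06). The interactions were therefore positive, 0.56 ± 0.15 with PD30 (adjusted p = 0.0169) and 1.32 ± 0.23 with PD24 (adjusted p = 0.0108). The PD30 interaction did not pass when 15 libraries shared one fit (0.49, adjusted p = 0.103), nor without Nutlin replicate 2 (0.49, adjusted p = 0.0545). FAS in N+PD30 gave −0.30 ± 0.12 against Nutlin (adjusted p = 0.0663) and −0.71 ± 0.12 against N+PD24 (adjusted p = 0.002), and N+PD24 gave 0.40 ± 0.12 against Nutlin (adjusted p = 0.0269). This last difference missed the threshold without Nutlin replicate 2 or 3 or N+PD24 replicate 1 or 3 (0.30 to 0.42, adjusted p from 0.0518 to 0.132), and with no filter on low values (adjusted p = 0.0653).

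FAS shares 683 bases with ACTA2 and 3593 bases with an annotated long noncoding RNA, both on the opposite strand. The level of that noncoding RNA was not examined. ACTA2, a smooth muscle actin, averaged 79.4 CPM in DMSO, 186 CPM in Nutlin, 371 CPM in PD24, 342 CPM in PD30, 464 CPM in N+PD24 and 459 CPM in N+PD30. ACTA2 was thus high in N+PD24, where FAS was highest, and also in PD24 and PD30, where FAS was lowest. Its part in the FAS counts was not tested.

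TNFRSF1A moved differently. It held 135, 118 and 100.3 CPM in DMSO, and 81.0, 92.2 and 86.9 CPM in Nutlin. N+PD24 was as low as Nutlin, at 90.1, 84.8 and 86.8 CPM. N+PD30, at 149.8, 144 and 121 CPM, was above both. PD24 (102 to 129 CPM) and PD30 (108 to 128 CPM) lay inside the range of DMSO.

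In N+PD30, TNFRSF1A was 0.64 ± 0.14 above Nutlin (adjusted p = 0.00282) and 0.53 ± 0.13 above N+PD24 (adjusted p = 0.0122). The decrease with Nutlin alone was small (−0.32 ± 0.12, adjusted p = 0.0445). It missed the threshold when any of the DMSO libraries 1 and 2 or any Nutlin library was left out, with values from −0.21 without DMSO replicate 1 to −0.38 without Nutlin replicate 2 and adjusted p from 0.0543 to 0.158, and also with relative log expression factors (adjusted p = 0.0503) or one fit on 15 libraries (adjusted p = 0.0623). The interaction with PD30 was 0.66 ± 0.19 (adjusted p = 0.0234), and it missed the threshold without DMSO replicate 1 or 2, Nutlin replicate 1, PD30 replicate 3 or N+PD30 replicate 2 (0.55 to 0.66, adjusted p from 0.0515 to 0.0585). The higher level in N+PD30 than in N+PD24 was lost without N+PD24 replicate 2 or N+PD30 replicate 2 (adjusted p = 0.0627 and 0.0563). With the replicate number as a block, TNFRSF1A passed in N+PD24 against PD24 (−0.27, adjusted p = 0.0288, 0.114 without the block), as it did with scaling by total counts (−0.42, adjusted p = 0.0186) and without PD24 replicate 3 (−0.37, adjusted p = 0.0433). With the block it also passed in N+PD30 against PD30 (0.29, adjusted p = 0.0384, 0.15 without the block).

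The 4 TRAIL receptor genes lie side by side on chromosome 8, within positions 22877646 to 23082615 (GRCh37), with TNFRSF10B, TNFRSF10A and TNFRSF10D on the minus strand and TNFRSF10C on the plus strand. Of the decoy receptors, TNFRSF10D responded to both drugs. Its DMSO libraries held 131, 128 and 120.2 CPM. Nutlin held 379, 354 and 320.2 CPM, PD24 held 244, 259 and 283 CPM and PD30 held 266, 222 and 279.7 CPM. The combinations were highest, with 655, 648 and 691 CPM in N+PD24 and 489, 522 and 624 CPM in N+PD30. PD24 and PD30 overlapped, and no other groups did.

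TNFRSF10D rose 3.03-fold with Nutlin (1.60 ± 0.10, adjusted p = 2.58e-06), 2.10-fold in PD24 (1.07 ± 0.09, adjusted p = 3e-05) and 2.0-fold in PD30 (1.00 ± 0.09, adjusted p = 2.69e-05). Against Nutlin alone, TNFRSF10D was higher by 0.99 ± 0.11 in N+PD24, after PD0332991 (adjusted p = 0.000111), and by 0.59 ± 0.13 in N+PD30, during it (adjusted p = 0.0034). No interaction passed: the value was −0.37 with PD30 (interval −0.71 to −0.03, adjusted p = 0.119) and −0.10 with PD24 (interval −0.39 to 0.19, adjusted p = 0.836). N+PD30 gave −0.41 ± 0.12 against N+PD24 (adjusted p = 0.0222), and this was lost with scaling by total counts (−0.29, adjusted p = 0.0894), with no filter on low values (−0.39, adjusted p = 0.0509) and without N+PD24 replicate 2 or 3 or N+PD30 replicate 1 or 2 (−0.44 to −0.35, adjusted p from 0.0539 to 0.121). The annotation lists no gene that overlaps TNFRSF10D.

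TNFRSF10C, the lipid-anchored decoy, had 2 to 23 counts in a library. Its means ran from 0.117 ± 0.0713 CPM in PD24 to 0.624 ± 0.417 CPM in N+PD30, and its libraries overlapped between most groups. Nutlin against DMSO gave 0.34 (interval −0.50 to 1.19, adjusted p = 0.465) and PD30 against DMSO gave 0.71 (interval −0.27 to 1.70, adjusted p = 0.21), or 1.06 without PD30 replicate 2 (adjusted p = 0.0447). No other comparison of it passed, and it was too low to be tested in PD24 against DMSO and in the comparisons with N+PD24. The 4 receptor genes are paralogs, and TNFRSF10C overlaps another annotated protein-coding gene on its own strand by 12616 bases, so its counts are uncertain.

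The makeup of TRAIL receptor RNA was set by TNFRSF10B and TNFRSF10D. Levels between genes were compared as CPM per kb of annotated exon (GENCODE basic transcripts). TNFRSF10B made up 70.4% ± 0.609 of the summed per-kb level of the 4 receptors in DMSO, 73.6% ± 1.82 in Nutlin, 54.7% ± 2.88 in PD24, 61.3% ± 1.22 in PD30, 62.5% ± 1.87 in N+PD24 and 64.7% ± 1.55 in N+PD30 (SD, n = 3). TNFRSF10A never exceeded 0.317% of it in a library. The per-kb level of the signalling receptors DR4 and DR5 over that of the decoys was 2.40 ± 0.0678 in DMSO and 2.83 ± 0.281 in Nutlin. It was 1.22 ± 0.139 in PD24, 1.59 ± 0.0831 in PD30, 1.68 ± 0.138 in N+PD24 and 1.84 ± 0.122 in N+PD30. Every library with PD0332991 (1.07 to 1.94) lay below every library without it (2.32 to 3.14). These ratios are of RNA and say nothing of receptors at the surface.

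**Figure D1:**
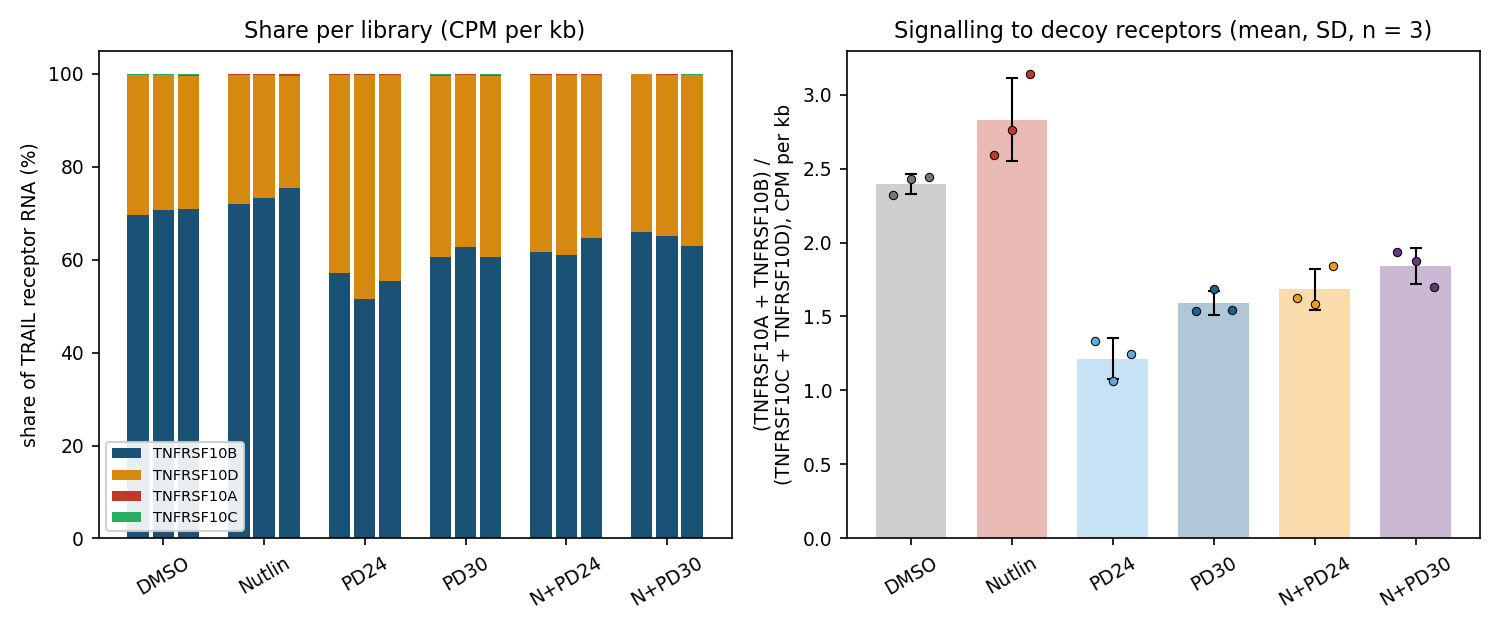
Left, share of each TRAIL receptor gene in the summed CPM per kb of the 4 genes (vertical axis, %) for each library, 3 bars a group. Right, ratio of the signalling receptors TNFRSF10A and TNFRSF10B to the decoys TNFRSF10C and TNFRSF10D (points, libraries; bars, mean; error bars, SD; n = 3), which lay between 1.07 and 1.94 in all libraries with PD0332991 and between 2.32 and 3.14 in those without.

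The ligand gene TNFSF10 was low in this line and lower with the CDK4 inhibitor. DMSO libraries held 1.09, 1.18 and 1.2 CPM (34 to 37 counts). Nutlin libraries spread from 0.833 to 2.20 CPM and overlapped DMSO. PD24 held 0.238, 0.422 and 0.298 CPM and PD30 0.310, 0.111 and 0.312 CPM, all below every DMSO library. N+PD24, at 0.656, 0.596 and 0.542 CPM, lay between, and N+PD30 was down to 0.236, 0.101 and 0.242 CPM, which is 3 to 5 counts.

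TNFSF10 fell by 1.85 ± 0.29 in PD24 (adjusted p = 0.00111) and by 2.26 ± 0.34 in PD30 (adjusted p = 0.000485), and N+PD30 against Nutlin gave −3.16 ± 0.50 (adjusted p = 0.000485). Nutlin alone gave 0.57 ± 0.32 (adjusted p = 0.155), with 0.87 without Nutlin replicate 2 (adjusted p = 0.0205) and 0.23 without Nutlin replicate 1 (adjusted p = 0.565). From PD24 to N+PD24 it rose by 0.50 ± 0.17 on the log2(CPM + 0.5) scale (adjusted p = 0.0413), and by 1.06 in the count fit (adjusted p = 0.0354). On the same scale N+PD24 against Nutlin gave −0.81 ± 0.24 (adjusted p = 0.0278, and −1.32 in the count fit) and N+PD30 against N+PD24 gave −0.72 ± 0.18 (adjusted p = 0.014, and −1.84 in the count fit). The first of these 3 was lost without PD24 replicate 1 or 3 (adjusted p = 0.135 and 0.107), with a pseudocount of 1 (0.0505) and with total counts (0.0651), the second without Nutlin replicate 1 or 3 or N+PD24 replicate 2 or 3 (adjusted p from 0.072 to 0.0948) and the last without N+PD30 replicate 2 (adjusted p = 0.0671). N+PD30 against PD30 was too low to be tested. Except in Nutlin against DMSO and N+PD24 against Nutlin, TNFSF10 passed the filter on low values through the group where it was higher, so its being tested was tied to a difference. The calls also passed with no filter.

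The adaptor FADD was lowest in the Nutlin group. It held 84.8, 92.2 and 87.4 CPM in DMSO and 44.1, 49.1 and 56.8 CPM in Nutlin, with no overlap. N+PD24 lay between, at 79.6, 64.2 and 71.7 CPM, and N+PD30, at 88.4, 85.4 and 78.0 CPM, overlapped DMSO. PD24 (87.8 to 95.7 CPM) and PD30 (84.8 to 93.5 CPM) overlapped DMSO as well. Every N+PD24 library was below every PD24 library. FADD fell by 0.69 ± 0.10 with Nutlin (adjusted p = 0.00033), while N+PD30 against PD30 gave 0.01 (interval −0.23 to 0.25, adjusted p = 0.947). N+PD24 against PD24 gave −0.19 ± 0.13 (adjusted p = 0.264), which passed with scaling by total counts (−0.34, adjusted p = 0.0428). The interaction was 0.76 ± 0.15 with PD30 (adjusted p = 0.00308) and 0.50 ± 0.16 with PD24 (adjusted p = 0.164). Against Nutlin, FADD was 0.71 ± 0.13 higher in N+PD30 (adjusted p = 0.00121) and 0.59 ± 0.13 higher in N+PD24 (adjusted p = 0.00714). An annotated long noncoding RNA shares 1100 bases with FADD on the opposite strand, and its level was not examined.

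CFLAR, the brake on caspase-8, changed little. DMSO held 81.6, 72.4 and 80.6 CPM and Nutlin 114, 95.6 and 112 CPM, without overlap. The means were 76.9 ± 13 CPM in PD24, 96.8 ± 12.6 CPM in PD30, 96.4 ± 4.93 CPM in N+PD24 and 114 ± 14.0 CPM in N+PD30. It rose 1.49-fold with Nutlin (0.58 ± 0.10, adjusted p = 0.000646) and 1.40-fold from PD24 to N+PD24 (0.49 ± 0.13, adjusted p = 0.0166). The latter missed the threshold with scaling by total counts (0.34, adjusted p = 0.0764) and without PD24 replicate 2 or N+PD24 replicate 2 or 3 (0.38 to 0.51, adjusted p from 0.0514 to 0.0593). From PD30 to N+PD30 it gave 0.33 ± 0.12 (adjusted p = 0.0972), and with the replicate block, which applied to that comparison, it passed (adjusted p = 0.0272). The rise in PD30 over DMSO (0.29 ± 0.10, adjusted p = 0.0402) was lost when any one library except PD30 replicate 2 was left out, with values from 0.22 to 0.32, and in one fit on 15 libraries (0.31, adjusted p = 0.0605). N+PD30 and Nutlin differed by 0.05 (interval −0.22 to 0.32, adjusted p = 0.74). CFLAR-AS1 overlaps it on the opposite strand and averaged 0.251 CPM in DMSO and 1.51 CPM in N+PD24.

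**Figure D2:**
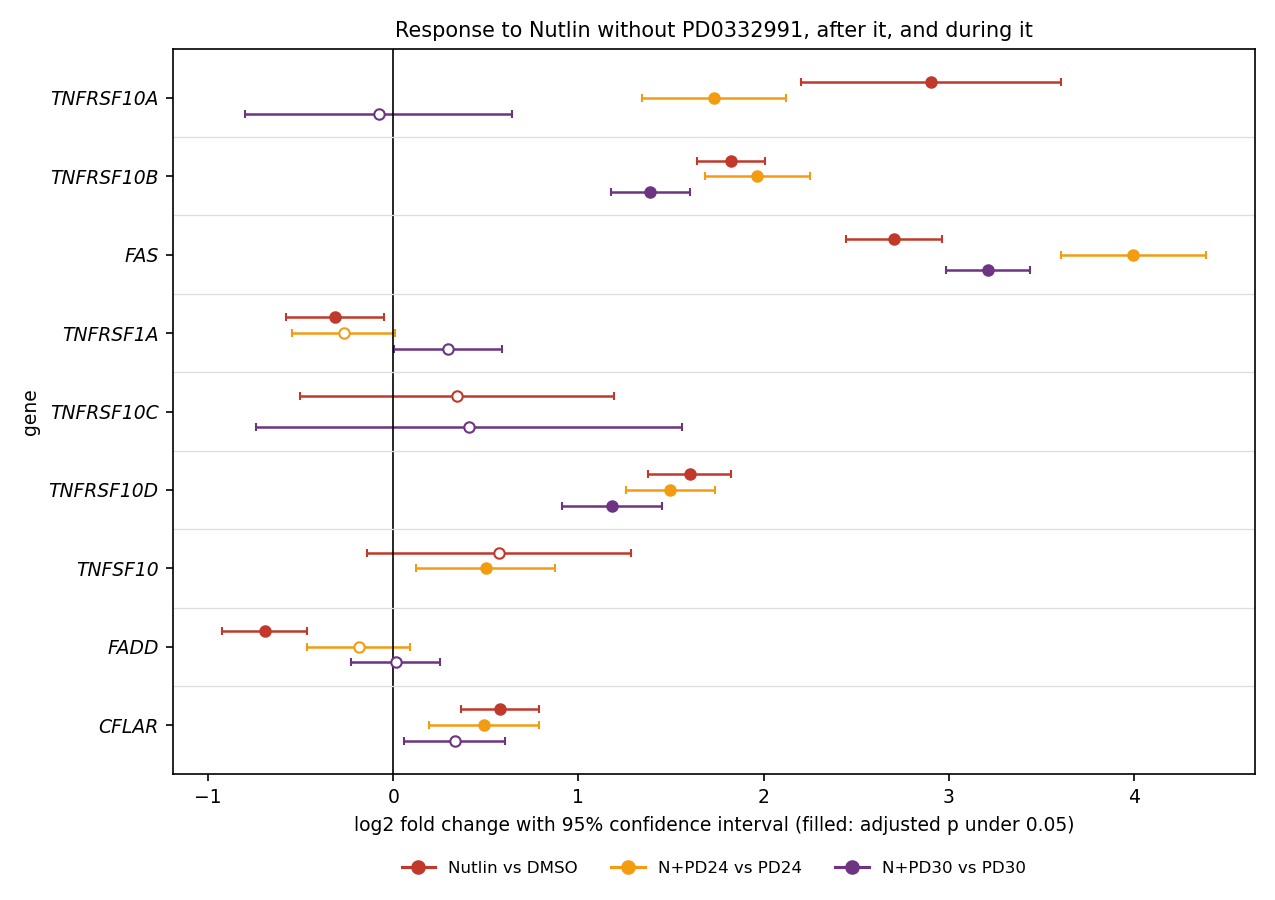
Log2 fold change of each gene with 95% confidence interval (horizontal axis) for Nutlin against DMSO (red), N+PD24 against PD24 (orange, on the log2(CPM + 0.5) scale) and N+PD30 against PD30 (purple); filled points had an adjusted p under 0.05, and a missing point was not tested. For TNFRSF10A the value with PD0332991 present was −0.08 against 2.90 without it, while FAS, TNFRSF10B and TNFRSF10D passed in all 3.

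Counts over the 9 genes include TNFRSF10A and TNFSF10 where they passed the filter through the group where they were high, and so are a description. Nutlin against DMSO called 7 of 9 where 54.6% of 15766 genes were called, so the count is to be read against a majority of all genes. With a log2 fold change over 1 as well, the count was 4 of 9 (20.8% of all genes), all higher, where 12.4% of genes were called higher. N+PD24 against PD24 called 6 of 8 tested (37.0% of all genes), and N+PD30 against PD30 called 3 of 8 (14.5% of all genes), or 5 of 8 with the replicate block (29.0% of all genes in that fit). PD0332991 alone called 5 of 9 in PD30 (48.3%) and 3 of 8 in PD24 (38.3%). Against Nutlin alone, N+PD30 called 5 of 9 (49.0%) and N+PD24 called 4 of 8 (35.4%), and N+PD30 against N+PD24 called 5 of 8 (32.3%). Interactions passed for 5 of 9 with PD30 (19.8%) and for 1 of 8 with PD24 (1.50%). With a log2 value over 1 as well, the counts were 4 of 8 in N+PD24 against PD24 (11.4% of all genes), 3 of 8 in N+PD30 against PD30 (3.68%), 2 of 9 in PD30 against DMSO (15.2%), 2 of 8 in PD24 against DMSO (12.6%), 2 of 9 in N+PD30 against Nutlin (22.3%), 0 of 8 in N+PD24 against Nutlin (9.26%, limma), 1 of 8 in N+PD30 against N+PD24 (9.61%), 1 of 9 for the PD30 interaction (10.2%) and 1 of 8 for the PD24 interaction (1.10%). The comparisons share DMSO, Nutlin or combination libraries, so their counts are not independent.

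**Figure D3:**
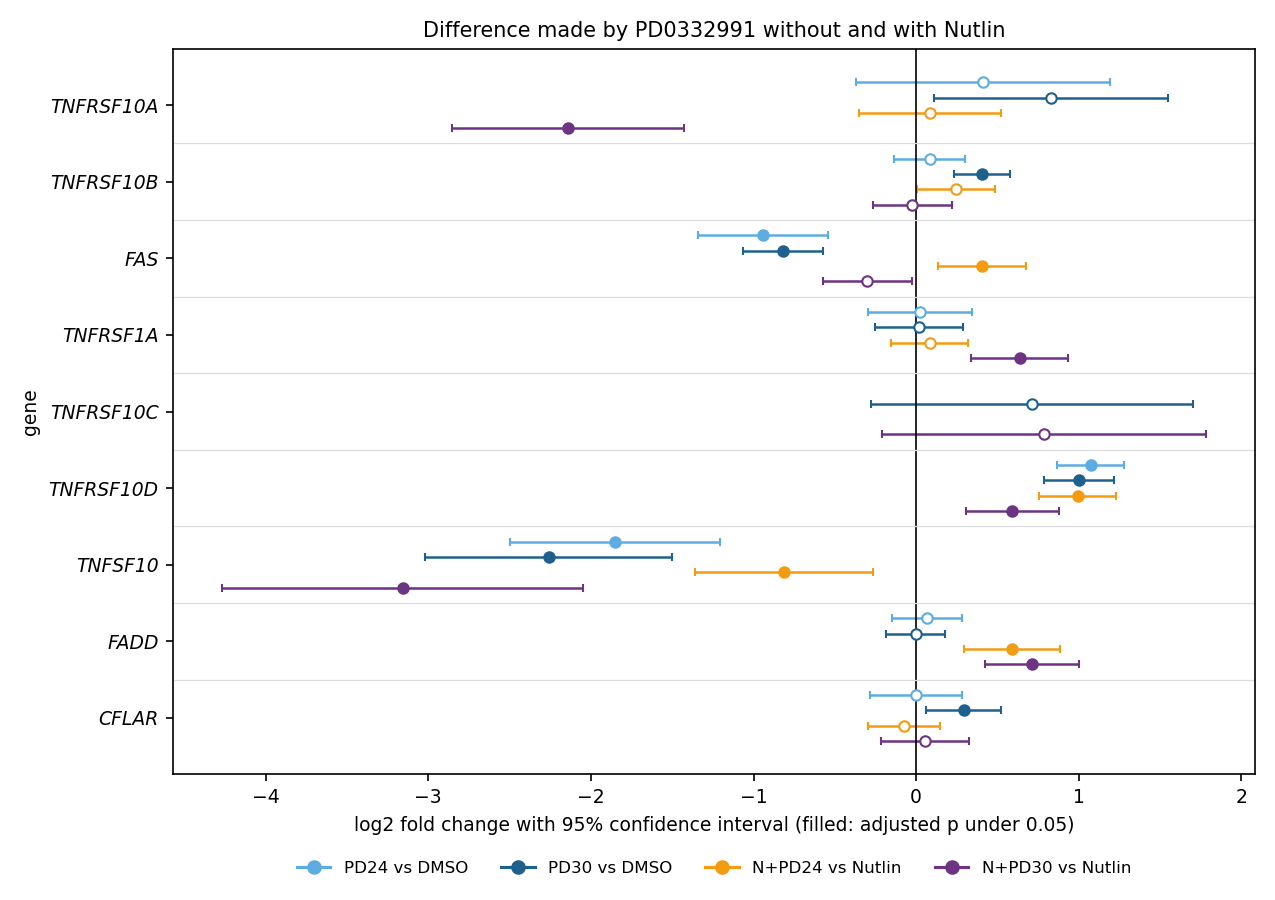
Log2 fold change with 95% confidence interval (horizontal axis) of PD24 and PD30 against DMSO and of N+PD24 and N+PD30 against Nutlin for the 9 genes; filled points had an adjusted p under 0.05, missing points were not tested, and the N+PD24 values are on the log2(CPM + 0.5) scale. TNFRSF10D was higher and TNFSF10 lower in all 4 comparisons, and of the 4 comparisons TNFRSF10A passed in N+PD30 against Nutlin.

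The other ligands of the TNF superfamily gave a mixed picture. Of 17 in the table, 10 could be tested with Nutlin, of which 6 rose and 0 fell, beside 26.6% of all genes that rose. LTA and TNFSF4 passed the filter on low counts through the Nutlin libraries alone, where they are high, so this count is tilted towards rises. LTA, which encodes lymphotoxin alpha, had 0 to 2 counts in DMSO, 78 to 107 in Nutlin, 40 to 78 in N+PD24 and 2 to 5 in N+PD30. TNFSF4 (OX40 ligand) had 3 or 4 counts in DMSO, 42 to 46 in Nutlin, 25 to 30 in N+PD24 and 6 to 14 in N+PD30. In CPM, LTA in N+PD30 averaged 0.157 beside 0.103 in PD30, and TNFSF4 averaged 0.495 beside 0.272, with all its N+PD30 libraries above PD30 and DMSO. TNFSF4 gave −1.65 ± 0.32 on the log2 scale in N+PD30 against Nutlin (adjusted p = 0.00145). TNFSF14 (LIGHT) rose 5.93-fold with Nutlin (adjusted p = 0.000152). Between N+PD30 and Nutlin, 4 of 10 ligands were higher and 4 lower, where 49.0% of all genes were called, and LTA and TNFSF4 again passed the filter through Nutlin.

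Among the other receptors with a death domain, 3 of 4 could be tested with Nutlin, and 2 rose, beside 26.6% of all genes that rose. EDAR, the ectodysplasin receptor, had 1 or 2 counts in DMSO, 12 to 37 in Nutlin, 4 to 7 in N+PD24 and 2 to 6 in N+PD30. It passed the filter through Nutlin alone, so the count of these receptors is tilted towards rises. NGFR, the low-affinity neurotrophin receptor, rose 2.09-fold (adjusted p = 0.0119). N+PD30 against Nutlin gave −1.44 ± 0.44 for NGFR (adjusted p = 0.0189). There NGFR had 5 to 12 counts in N+PD30 and passed the filter through Nutlin, where it was higher, so its being tested was tied to a difference. Of 19 other members of the receptor superfamily, 12 were tested with Nutlin, of which 2 rose and 2 fell (median −0.13). Of all genes, 26.6% rose and 28.0% fell. EDA2R, the X-linked ectodysplasin receptor, rose 5.17-fold with Nutlin (adjusted p = 4.13e-07), 6.10-fold in N+PD30 over PD30 and 11.8-fold in N+PD24 over PD24. TNFRSF14, the receptor of LIGHT, rose 4.11-fold, 3.22-fold and 2.43-fold in the same order. LTBR, the lymphotoxin beta receptor, rose 2.63-fold from Nutlin to N+PD30 (adjusted p = 1.17e-05). In that step 3 of 12 tested rose and 3 fell, beside 49.0% of all genes called. LTBR also rose 2.39-fold from Nutlin to N+PD24, and 2.02-fold in PD30 and 2.03-fold in PD24 over DMSO.

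Of 33 components of the complexes below the receptors, 31 were tested, and with Nutlin 4 rose and 12 fell (median −0.25), beside 28.0% of all genes that fell. PIDD, a death-domain protein of the caspase-2 complex, rose 7.35-fold (adjusted p = 1.93e-05) and CASP10 2.43-fold (adjusted p = 0.000141), while DAXX (−1.39 ± 0.10), RIPK1 (−1.25 ± 0.10) and TRAF5 (−1.22 ± 0.14) fell. CASP8, the initiator caspase recruited by FADD, gave −0.27 (adjusted p = 0.0806). In N+PD30 against Nutlin 12 of 31 rose and 7 fell, where 49.0% of all genes were called, led upward by TRADD, the adaptor of TNFRSF1A (2.52-fold, adjusted p = 0.000242), and DEDD2 (2.48-fold, adjusted p = 0.000103).

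The genes most like each member over the 18 libraries, by Pearson correlation of log2(CPM + 0.5) among 10885 genes with a mean of at least 5 CPM, are given as a description, since the libraries share treatments. FAS was closest to CDKN1A (0.990), CDH10 (0.988) and EDA2R (0.988). TNFRSF10A was closest to INHBC (0.972) and ABCC2 (0.971), and TNFRSF10B to PVT1 (0.990) and CYFIP2 (0.985). TNFRSF10D was closest to NADSYN1 (0.965) and SEC61A1 (0.963), and TNFSF10 to ABHD3 (0.929) and EPB41L2 (0.920). The other members spanned under 1 log2 unit between group means and were not matched.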

How the data were processed

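Members and gene lists were chosen with earlier results of these data known. Per the labels, RNA of SJSA cells was sequenced after a TruSeq RNA LT preparation. The authors aligned reads to hg19 with TopHat and Bowtie2 and counted them per gene with HTSeq 0.6.0 in reverse strand mode. For 15 libraries the deposited values are raw counts. For the 3 N+PD24 libraries they are a signal, counts that the authors had divided by a size factor. The authors' own tables of DESeq2 fold changes and p-values, and tables of normalized values, were not used. The N+PD24 values were rescaled by their own total to CPM. Every value there was a whole multiple (100%, tolerance 0.001 reads) of the value of 1 read.

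Comparisons between count libraries used edgeR 4.0.16 (quasi-likelihood, TMM scaling, filterByExpr). Those with N+PD24 used limma 3.58.1 on log2(CPM + 0.5), keeping genes at 0.5 CPM in 3 libraries. On the recovered reads edgeR called 5483, 5713 and 4959 genes (N+PD24 against Nutlin, against PD24, and N+PD30 against N+PD24) beside 5400, 5514 and 4821 with limma, and for the PD24 interaction 116 beside 235. Fits held only the groups compared, and p-values were adjusted by Benjamini-Hochberg over all genes at a threshold of 0.05. SE for edgeR is the log2 fold change over the root of F. The study calls the replicates biological, without saying how they were separated. The p-values set each group difference against the spread between replicates, which the fits estimate by borrowing across genes. On simulated counts for Nutlin against DMSO, 94% of genes changed by 1 log2 unit and 100% of those changed by 2 were recovered among 15668 genes. That fit made 8 false calls. For changes of 1 log2 unit, recovery was 90% in N+PD30 against Nutlin and 92% in N+PD24 against Nutlin. Changes were placed only in genes above a minimum mean count, with the same dispersion for every gene. The rates therefore do not cover genes as scarce as TNFRSF10C.

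Same-numbered libraries deviated together (every r over 0.1) in N+PD24 against Nutlin, N+PD24 against PD24 and N+PD30 against PD30, where the lowest r were 0.546, 0.225 and 0.197, so the block is given there where it changes a call. Named list genes were up to 3 rises and 3 falls per list and comparison with adjusted p under 0.05, log2 change over 1 and separate groups. CASP8 and the overlapping genes stand outside that rule and were chosen after their values were seen. Gene positions and exon lengths came from GENCODE v44 on GRCh37, where lengths over all basic transcripts understate per-kb levels of genes with many isoforms, such as CFLAR. DESeq2 1.42.0 and other alternatives are described in the closing section.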

Additional observations from a re-analysis of the deposited data

Results flagged for a closer look

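Responses to Nutlin that differed with PD0332991 by the interaction test are collected here, on the log2 scale and with adjusted p over all genes. With PD0332991 present (PD30), the difference was −2.93 ± 0.45 for TNFRSF10A (adjusted p = 0.00086, edgeR), 0.76 ± 0.15 for FADD (0.00308), 0.56 ± 0.15 for FAS (0.0169), 0.66 ± 0.19 for TNFRSF1A (0.0234) and −0.38 ± 0.11 for TNFRSF10B (0.0295). After its withdrawal (PD24), it was 1.32 ± 0.23 for FAS (adjusted p = 0.0108, limma). The PD30 interactions of TNFRSF10A and FADD and the PD24 interaction of FAS kept their call in all alternatives tried.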

How the results depend on the processing

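All 20 member results with a log2 fold change over 1 past the threshold kept their direction and call in their 252 alternative values. The counts of called members changed most with a fold threshold of 1 log2 unit, to 4 in Nutlin against DMSO, 2 in PD30 against DMSO, 2 in N+PD30 against Nutlin, 0 in N+PD24 against Nutlin (limma, and 0 at an unadjusted p under 0.05, but TNFSF10 passed in edgeR on recovered reads), 1 in N+PD30 against N+PD24 and 1 for the PD30 interaction, since fewer genes can pass. With the replicate block, N+PD30 against PD30 gave 5. Leaving out 1 library gave 2 to 3 in N+PD24 against Nutlin, with 2 without Nutlin replicate 3 or N+PD24 replicate 3. It gave 2 to 5 in N+PD30 against N+PD24, with 2 without N+PD24 replicate 2 or N+PD30 replicate 2 and 3 without N+PD24 replicate 3, and 3 to 5 for the PD30 interaction, with 3 without DMSO replicate 1 or 2, Nutlin replicate 2, PD30 replicate 3 or N+PD30 replicate 2. The cause was not tested.

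The signs that turned were of results that had missed the threshold. FADD in PD30 against DMSO became 0.0045 with DESeq2, 0.0079 with relative log expression factors, 0.012 with total counts and 0.013 in one fit on 15 libraries. CFLAR in PD24 against DMSO became 0.0065 with relative log expression factors, TNFRSF1A there −0.0043 with total counts, and TNFRSF10B in N+PD30 against Nutlin 0.017 with total counts. FADD in N+PD30 against PD30 became −0.083 with total counts, −0.011 with no filter and −0.016 in the fit on 15 libraries.

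Leaving out 1 library moved FADD from −0.049 to 0.039 and TNFRSF1A from −0.092 to 0.13 in PD30 against DMSO, and CFLAR from −0.15 to 0.080 and TNFRSF1A from −0.089 to 0.13 in PD24 against DMSO. In N+PD30 against PD30 it moved FADD from −0.025 to 0.093, TNFRSF10A from −0.20 to 0.20 and TNFRSF10C from −0.085 to 0.69. It moved CFLAR from −0.019 to 0.11 in N+PD30 against Nutlin, TNFRSF10A from −0.075 to 0.24 in N+PD24 against Nutlin and TNFRSF10C from −0.39 to 0.37 in the PD30 interaction. In the PD24 interaction it moved TNFRSF1A from −0.071 to 0.15, TNFRSF10A from −0.27 to 0.027, TNFSF10 from −0.14 to 0.38 and CFLAR from −0.19 to 0.045.

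In the 3 comparisons where the numbers pair the libraries, the replicate block changed the calls of TNFRSF10B, TNFRSF1A and CFLAR given in the report and no other call of a member. In the other comparisons the same numbers did not all deviate together (r down to −0.369). There the block moved no count of members by over 1.5 times, lost TNFRSF1A in Nutlin against DMSO (adjusted p = 0.0514) and gained TNFRSF10A in PD30 against DMSO (adjusted p = 0.047) and TNFRSF10B in N+PD30 against N+PD24 (adjusted p = 0.0438). Depth limits TNFRSF10C, TNFSF10 and TNFRSF10A, whose libraries often held under 20 counts.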
